A study of Mus musculus with 4 samples.

Results

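Nuclear pore genes encode nucleoporins, the proteins that build the channels through the nuclear envelope. The set described here held 31 genes that were chosen by name as components of the mouse nuclear pore, with Nup98 among them, and each was present as 1 row among the 23282 rows of the lung data. The set does not cover every gene of the pore. The study had singled out Nup98 from fold changes in these lungs and in other tissues, so that its values are given as a description. Lung RNA of male CDF1 mice was profiled by mRNA-seq of transcript 3' ends in 4 libraries. E(-)T(-), the normal control, had neither treadmill running nor tumor, and E(+)T(-), the normal exercise group, ran on a treadmill at high intensity. E(-)T(+), the cancer control, was injected in the tail vein with CT26, a line of mouse colorectal carcinoma cells, and E(+)T(+), the cancer exercise group, was both injected and exercised. Each group was labelled with postnatal day 28 and 10 mice. A similar age is stated for the purchase of the animals, which were killed after a further course of weeks, so that the labelled day is not the age at sampling. For muscle, the study describes RNA of a representative mouse per group, and for lungs a similar analysis, without giving the number of mice behind a lung library outright. Since a group is 1 library, none of the differences can be compared with a spread between replicates.

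The nuclear pore complex is built from a few modules that are repeated around a central channel. An outer ring, the Y complex, lies on both faces of the envelope, an inner ring lines the pore, and transmembrane nucleoporins anchor it in the membrane. Nucleoporins with phenylalanine-glycine repeats fill the channel and bind the receptors that carry proteins and RNA. Filaments on the cytoplasmic face finish the export of mRNA, and a basket extends into the nucleus. Nup98 carries such repeats and binds the mRNA export factor Rae1, and its precursor is cut into Nup98 and Nup96, a subunit of the Y complex. Dividing cells take their pores apart and build them anew, and cells with high transport make more of them.

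The libraries held between 9354515 and 13368001 reads assigned to genes, recovered from the deposited values, and E(-)T(+) was the shallowest. All 31 genes passed the filter of a mean normalized read count of 4, as did 15164 rows in all. Levels here are normalized read counts, and every list of 4 values begins with E(-)T(-), goes on with E(+)T(-) and then E(-)T(+), and ends with E(+)T(+). Marker genes of other cells differed widely between the libraries. The summed level of 15 cell division genes was 919, 1328, 14427 and 4773, that of 10 alveolar epithelium genes 229000, 278440, 33272 and 185580, and that of 8 endothelium genes 20436, 20772, 2377 and 18078. For 11 erythroid genes it was 1262600, 1298000, 117190 and 3837300, and for 10 neutrophil genes 3891, 12013, 10916 and 200030. The sums were 668, 586, 107 and 549.5 for the 9 T cell genes found and 939, 922, 33.4 and 271 for 8 B cell genes, of which 5 had no read in E(-)T(+). Of 8 keratin and epithelial genes listed for colorectal cells, summed at 7063, 8443, 5537 and 11976, Cdx2 was listed at 0 in every library. Krt20, a keratin of colon epithelium, had 0, 46, 2696 and 476 reads. Reads of Krt20 were thus present in E(+)T(-), a group labelled without tumor. Among the 6 genes of this list that passed the filter, Krt20 was the 1 that was higher in E(-)T(+) than in E(-)T(-). The other 5 were lower, 4 of them by 2-fold or more, where 25.7% of all rows were. In whole lung, fewer cells of a type and less RNA per cell cannot be told apart.

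Most nuclear pore genes had their highest level in the lungs of the cancer control. The highest of the 4 values lay in E(-)T(+) for 24 of the 31 genes (77.4%), where 35.5% of all 15164 rows had theirs. It lay in E(+)T(+) for 4, Nup160, Nupl1, Ranbp2 and Nup50, in E(-)T(-) for 3, Nup35, Nup210 and Nup153, and in E(+)T(-) for none. Of all rows, 22.3, 22.5 and 19.7% had their highest value in E(+)T(+), E(-)T(-) and E(+)T(-). The lowest value lay in E(-)T(-) for 12 genes, in E(+)T(+) for 10, in E(+)T(-) for 6 and in E(-)T(+) for 3. The shares of all rows were 22.1, 22.6, 18.3 and 36.9% in that order, so that E(-)T(+) held the lowest value of few of these genes and E(+)T(-) of a share near that of all rows. Summed over the 31 genes, the normalized read count was 8672, 9379, 15473 and 9891. The range over the 4 libraries was widest for Nup210, at 3.44 on the log2 scale, and narrowest for Nupl1, at 0.20.

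**Figure D1:**
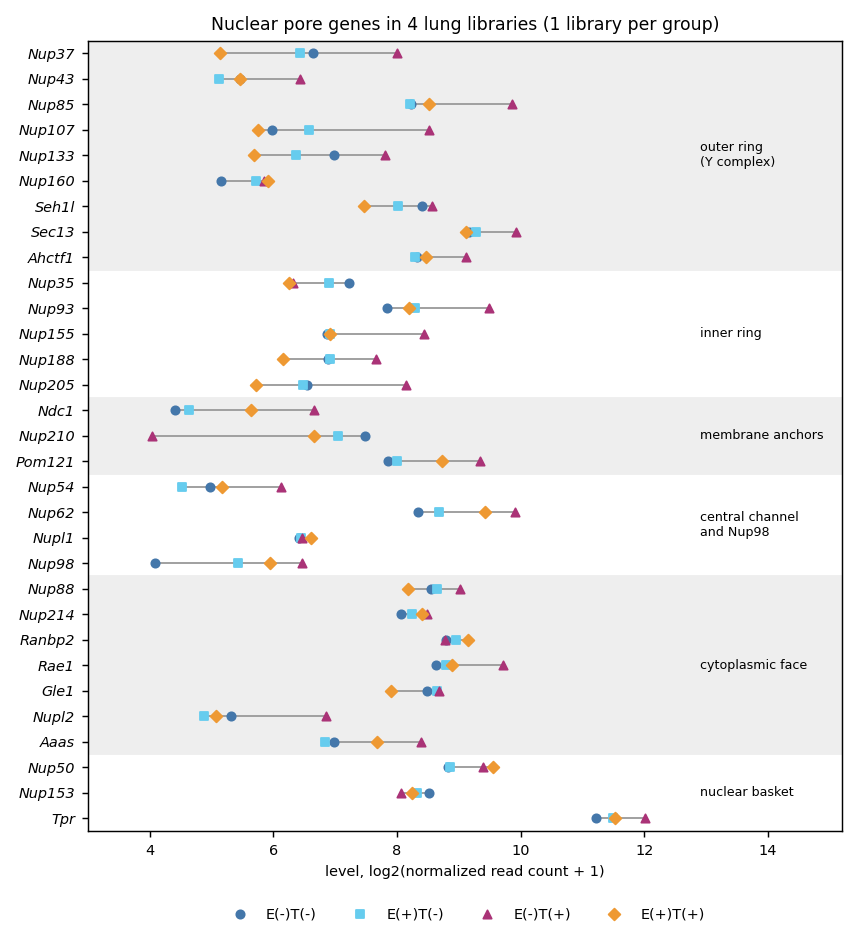
Levels of the 31 nuclear pore genes in the 4 lung libraries. Each point is 1 library, the horizontal axis is the deposited level, log2(normalized read count + 1), and shading separates the structural groups. The triangle of E(-)T(+) is the rightmost point for 24 genes and the leftmost for 3, Nup210, Ranbp2 and Nup153.

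Upstream sequences of RefSeq (GRCm38.p6) were searched for short motifs in the 250 bases before each start, on both strands. A sequence was found for 27 of the 31 genes. The search covered the ETS motif CCGGAAG, the CCAAT box, the E-box CACGTG, the E2F motifs TTTCCCGC and TTTGGCGC, the NRF1 motif GCGCATGC, which can overlap its own reverse complement, and a pair of heat shock units, GAANNTTC. The ETS motif was present in 6 of the 27 genes (22.2%), against 7.83% of the 27025 genes in the table. The NRF1 motif was present in 3 (11.1% against 2.56%), the E-box in 4 (14.8% against 6.86%) and the CCAAT box in 10 (37.0% against 37.5%). The first E2F motif was found in 1 gene (3.70% against 1.03%), as was the heat shock pair (3.70% against 7.73%), and the second E2F motif in none (0% against 0.485%). A match is a run of letters and not a site shown to be bound. Sequences of 4 genes are shown 5' to 3' on the strand of the gene with motif matches in capitals and without bases in exons. They are Nup98, which the set is named for, Nup107 and Nup62, which were high in E(-)T(+), and Nup210, which was low there. Nup98 (chr7:102210177-102210334, minus strand) has CCAAT boxes at 92 and 50 bases before the start, Nup107 (chr10:117792737-117792955, minus strand) an ETS motif at 250 bases and overlapping NRF1 motifs at 65 and 63 bases, and a further ETS motif at 10 bases that is not shown. Nup62 (chr7:44815838-44816087, plus strand) has CCAAT boxes at 242 and 90 bases and NRF1 motifs at 20 and 18 bases. Nup210 (chr6:91116830-91117076, minus strand) has the first E2F motif at 76 bases. The start used for Nup210 is that of a transcript that begins inside the gene. Its sequence thus lies within the span of the gene, chr6:91013067-91118322, and not before it.
Nup98: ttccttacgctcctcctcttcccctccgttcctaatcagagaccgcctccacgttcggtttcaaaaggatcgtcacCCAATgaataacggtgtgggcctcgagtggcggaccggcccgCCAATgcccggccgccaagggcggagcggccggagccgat
Nup107: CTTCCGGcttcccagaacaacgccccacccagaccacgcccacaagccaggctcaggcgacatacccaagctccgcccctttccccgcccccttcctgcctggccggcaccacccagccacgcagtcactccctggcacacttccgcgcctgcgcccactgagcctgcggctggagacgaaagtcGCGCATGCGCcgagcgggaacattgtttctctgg
Nup62: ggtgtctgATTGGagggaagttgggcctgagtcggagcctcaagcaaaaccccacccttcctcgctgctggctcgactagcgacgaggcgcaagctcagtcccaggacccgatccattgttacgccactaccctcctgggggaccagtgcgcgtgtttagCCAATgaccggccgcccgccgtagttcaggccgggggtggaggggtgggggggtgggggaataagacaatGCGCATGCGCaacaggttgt
Nup210: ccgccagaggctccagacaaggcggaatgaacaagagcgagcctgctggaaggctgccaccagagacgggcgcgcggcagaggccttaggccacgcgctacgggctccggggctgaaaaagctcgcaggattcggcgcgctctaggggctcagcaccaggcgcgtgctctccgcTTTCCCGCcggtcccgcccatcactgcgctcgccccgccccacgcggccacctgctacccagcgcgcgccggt

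The first comparison asked how lungs of sedentary mice differed with tumor, E(-)T(+) over E(-)T(-). Nuclear pore genes were mostly higher with tumor, among them Nup107 of the outer ring, Nup98 of the channel and the membrane anchor Ndc1, while the membrane anchor Nup210 was lower. Of the 31 genes, 27 were higher and 4 lower, and 14 were higher by 2-fold or more where 20.6% of all rows were. One, Nup210, was lower by 2-fold or more, against 25.7% of all rows. The median log2 fold change was 0.82 for the 31 genes, -0.03 for all rows and 0.01 for the 11263 rows in the range of mean levels of the 31 genes. Counting error alone was smaller than most of these differences, since the exact 95% Clopper-Pearson interval of the read ratio lay above 0 for 24 genes, below 0 for 3 and included 0 for 4. These intervals describe the 2 libraries and not the spread between mice.

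Outer ring genes were higher with tumor in 9 of 9 cases, with a median log2 fold change of 0.82, and 3 were past the limit. Of all rows, 48.9% were higher, and 20.6% were higher by 2-fold or more. Nup107, a stem subunit of the Y complex (chr10:117750621-117792736), had normalized read counts of 61.9, 94.6, 365 and 52.7. E(-)T(+) stood apart from the other 3 libraries, whose levels lay within 2-fold of each other. The log2 fold change was 2.54 (interval 2.19 to 2.94), a 5.81-fold higher level. Nup85, a subunit of a short arm of the Y, had counts of 299.9, 295, 930.2 and 366 and was 3.10-fold higher (log2 1.63, 1.45 to 1.82). Nup37, a small propeller protein bound to Nup160, had counts of 99.4, 85.4, 255 and 34.0 and was 2.55-fold higher (log2 1.35, 1.03 to 1.69). For Nup37 the library of the cancer exercise group lay below both tumor-free libraries, with intervals of its level that did not overlap theirs. The remaining 6 outer ring genes stayed under the limit, from 0.17 for Seh1l, shared with a nutrient-sensing complex, to 0.96 for Nup43, a peripheral propeller protein. Nup133, at the foot of the stem, was at 0.82, Ahctf1, which recruits the Y complex to chromatin, at 0.78, Sec13, also a coat protein of secretory vesicles, at 0.75, and Nup160, a long-arm subunit, at 0.70. Levels of Sec13 were 575, 620.2, 968 and 551 and those of Ahctf1 320.4, 312, 552 and 353, each highest in E(-)T(+). Nup160, at 34.8, 51.5, 57.0 and 59.6, differed in having its highest level in E(+)T(+), with intervals of level that overlapped across all 4 libraries.

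Inner ring genes divided into 4 that were higher and 1 that was lower. Nup93, the adaptor that links the ring to the channel proteins, had normalized read counts of 228, 313, 719 and 292 (log2 fold change 1.65, 1.45 to 1.87). The large scaffold proteins Nup205 and Nup188 are paralogs that bind Nup93. Nup205 had counts of 92.6, 88.1, 281 and 51.6 and was 3.02-fold higher, while Nup188, at 117, 119, 200.4 and 70.3, was at a log2 fold change of 0.77. Their intervals of 1.28 to 1.94 and 0.45 to 1.10 did not overlap. Nup155, which connects the ring to the membrane, had counts of 116, 120.3, 344 and 119 (log2 1.55, 1.27 to 1.86). Its levels in the 3 other libraries lay within a narrow band below E(-)T(+). Nup35, which binds the membrane and Nup155, went the other way, with counts of 149, 119, 78.9 and 74.9 and a log2 fold change of -0.91 (-1.33 to -0.51).

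Membrane anchors held the lowest fold change, that of Nup210, and the highest after Nup107 and Nup98, that of Ndc1. Nup210, a glycoprotein with a large domain in the lumen of the envelope (chr6:91013067-91118322), had 209, 142, 14 and 85 reads, or normalized counts of 178, 131, 15.4 and 99.4. E(-)T(+) was the lowest, and its interval of level lay below those of the other 3 libraries. The level was 10.9-fold lower with tumor (log2 -3.44, -4.43 to -2.75). Ndc1, a transmembrane protein needed for pore assembly, had 24, 26, 91 and 42 reads and normalized counts of 20.3, 23.8, 99.6 and 49.1, and was 4.72-fold higher (log2 2.24, 1.63 to 3.003). Pom121, another transmembrane anchor, had counts of 230.2, 254, 644 and 423 and was 2.79-fold higher (log2 1.48, 1.27 to 1.70). Ndc1 and Pom121 were thus higher in both tumor libraries than in both tumor-free ones, and Nup210 was lower in both, most in E(-)T(+). The interval of level of Nup210 in E(+)T(+), 79.4 to 122.9, overlapped that in E(+)T(-), 109.9 to 153.8.

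Among the channel nucleoporins, Nup98 (chr7:102119400-102210166) had 19, 46, 80 and 52 reads, or normalized counts of 16.0, 42.2, 87.6 and 60.8. The tumor-free sedentary library was the lowest and E(-)T(+) the highest, and the interval of level in E(-)T(-) overlapped none of the other 3. Nup98 was 5.20-fold higher with tumor (log2 2.38, 1.71 to 3.25). Its reads were counted per gene and do not tell Nup98 from Nup96, the Y complex subunit cut from the same precursor. Nup62, the center of the channel trimer with Nup54 and Nupl1 (also named Nup58), had counts of 322, 407, 962 and 689 and was 2.98-fold higher (log2 1.58, 1.40 to 1.76). Nup54 had counts of 30.5, 22.0, 68.9 and 35.1 (log2 1.15, 0.56 to 1.81). The third partner, Nupl1, had counts of 84.1, 86.4, 87.6 and 97.0 and a log2 fold change of 0.06 (-0.38 to 0.50). The genes of the trimer therefore did not share a fold change, and the intervals of Nupl1 and Nup62 did not overlap.

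**Figure D2:**
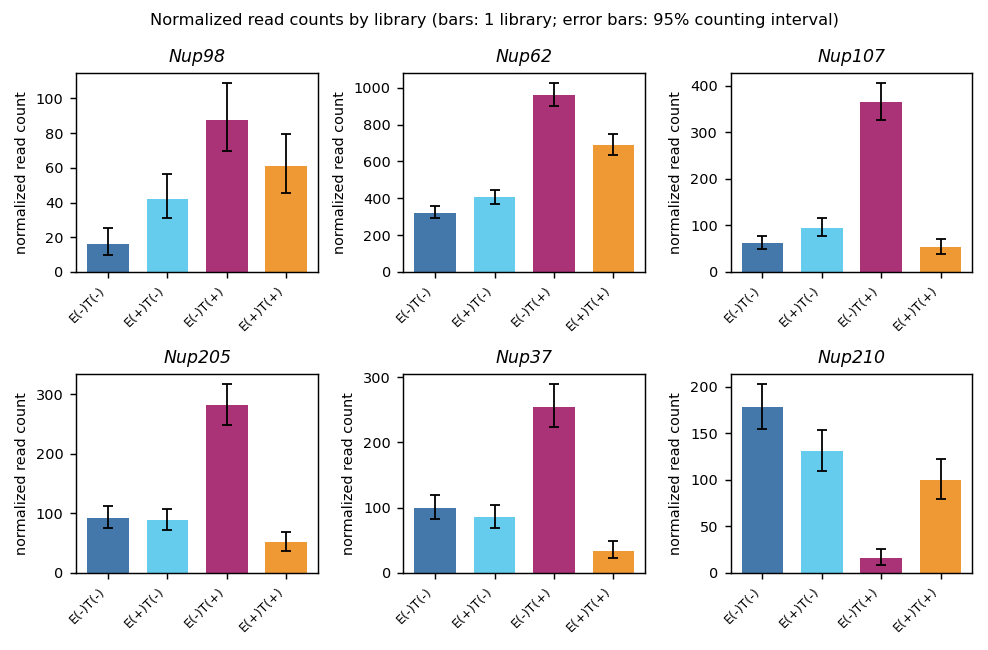
Normalized read counts of Nup98, Nup62, Nup107, Nup205, Nup37 and Nup210 in each library. Bars are single libraries and error bars are 95% Poisson intervals that cover counting error only. E(-)T(+) is the highest bar for 5 of these genes and the lowest for Nup210.

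On the cytoplasmic face, 3 of 7 genes were past the limit, all higher with tumor, where 20.6% of all rows were higher and 25.7% lower. Rae1, the mRNA export factor that binds Nup98, had normalized read counts of 397, 444, 836 and 473 (log2 fold change 1.07, 0.91 to 1.24). Nupl2, which binds the export regulator Gle1, had counts of 39.0, 28.4, 115 and 32.8 (log2 1.53, 1.04 to 2.09), and Aaas, a propeller protein held by Ndc1, had counts of 125, 113, 334 and 205 (log2 1.41, 1.13 to 1.71). The 4 others were within 2-fold. Nup88 was at 0.47, Nup214, its partner in the filament base, at 0.42, Gle1, the activator of the export helicase, at 0.20, and Ranbp2, the large filament protein that binds Ran, at -0.02. Normalized counts of Ranbp2 were 442, 494, 435 and 565 and those of Nup214 267, 303, 357 and 337, so that the highest and lowest libraries of each differed by less than 1.5-fold. No basket gene was past the limit. Tpr, the main fiber of the basket, had counts of 2376, 2863, 4132 and 2954 (log2 0.80), Nup50, which assists importins, 450.3, 462, 669 and 747 (log2 0.57), and Nup153, the basket anchor, 366, 319, 266 and 302 (log2 -0.46).

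Genes of dividing cells moved in the same comparison. The 15 cell division genes were all higher with tumor by 2-fold or more, with a median log2 fold change of 4.50, while 10 of 10 alveolar epithelium genes and 8 of 8 endothelium genes were lower by 2-fold or more, with medians of -2.49 and -3.42. All 7 B cell genes tested were lower by 2-fold or more, as were 8 of 9 T cell genes and 8 of 11 erythroid genes. Of 10 neutrophil genes, 8 were higher by 2-fold or more. The part of these differences in cell content in the values of the nuclear pore genes was not tested. Scaled to the library totals without hemoglobin genes and the ribosomal row Rn45s, Rae1 was at 0.92 and Nup35 at -1.05, on the other side of the 2-fold limit than above. That scaling had 13 genes higher and 2 lower by 2-fold or more, where 17.9 and 28.5% of all rows were. Nup43 was past the limit at 1.07 with library totals alone and at 1.01 with median-of-ratios size factors. Each of these 2 scalings had 15 genes higher by 2-fold or more, where 22.8 and 21.4% of all rows were.

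The second comparison asked how the lungs of tumor-bearing mice differed with exercise, E(+)T(+) over E(-)T(+). Nuclear pore genes were mostly lower with exercise, most of all Nup37 and Nup107 of the outer ring and Nup205 of the inner ring, while Nup210 was higher. Of the 31 genes, 25 were lower and 6 higher. At the 2-fold limit 11 were lower, where 17.7% of all rows were, and 1 was higher, against 24.3% of all rows. The median log2 fold change was -0.81, against 0.01 for all rows and -0.06 for rows in the range of levels of the 31 genes. This comparison shares E(-)T(+) with the first, so that a value in that library alone moves both. Intervals of the read ratio lay below 0 for 23 genes, above 0 for 2 and included 0 for 6.

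In the outer ring, 5 of 9 genes were lower by 2-fold or more, where 17.7% of all rows were. Nup37 had 233 reads without and 29 with exercise and was 7.31-fold lower (log2 -2.87, -3.52 to -2.35). Nup107 was 6.80-fold lower (log2 -2.77, -3.28 to -2.34), with 333 and 45 reads. Nup133 had normalized read counts of 126, 81.7, 223 and 50.4 and a log2 fold change of -2.13 (-2.66 to -1.67). For these 3 genes the level in E(+)T(+) was the lowest of the 4 libraries. Nup85 was at -1.34 and Seh1l, with counts of 338, 257, 379 and 177, at -1.10. Of the others, Nup43 was at -0.96, Sec13 at -0.81, Ahctf1 at -0.64 and Nup160 at 0.06.

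Inner ring genes had the lowest median of the 6 structural groups in this comparison, -1.50, and 4 of 5 were lower by 2-fold or more, against 17.7% of all rows. Nup205 was 5.37-fold lower (log2 -2.43, -2.95 to -1.99). Nup155 was at -1.52 (-1.87 to -1.20), Nup188 at -1.50 (-1.96 to -1.09) and Nup93 at -1.29 (-1.51 to -1.09). Nup35, the exception in the first comparison, was at -0.07, with an interval that included 0. Levels of Nup35 were thus close in both tumor libraries and below those of both tumor-free libraries.

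Of the 3 membrane anchors, Nup210 and Ndc1 were past the limit in opposite directions. Nup210 was 6.12-fold higher with exercise (log2 2.61, 1.87 to 3.63), with 14 and 85 reads. Ndc1 lay at the limit with -1.005 (-1.59 to -0.48), and was inside it, at -0.96, with a pseudocount of 4. As deposited, no channel gene was past the limit, where 17.7% of all rows were lower and 24.3% higher. Nup98 was at -0.52 (-1.06 to -0.01), Nup62 at -0.48, Nup54 at -0.95 and Nupl1 at 0.14. The interval of Nup98 ended just below 0, on 80 reads without and 52 with exercise. With library totals alone, Nup54 at -1.55, Nup98 at -1.12 and Nup62 at -1.09 were past the limit.

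On the cytoplasmic face, Nupl2 was the 1 gene of 7 past the limit, at -1.78 (-2.47 to -1.20) with 105 and 28 reads. Of all rows, 17.7% were lower and 24.3% higher by 2-fold or more. Nup88 was at -0.83, Rae1 at -0.82, Gle1 at -0.77 and Aaas at -0.70, each with an interval below 0. Ranbp2 was higher, at 0.38 (0.18 to 0.57), and Nup214 was at -0.09 with an interval that included 0. The mouse annotation names 12 pseudogenes of Ranbp2, and reads of near-identical copies may be shared with it. Basket genes stayed within 2-fold, with Tpr at -0.48, Nup50 at 0.16 and Nup153 at 0.18.

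**Figure D3:**
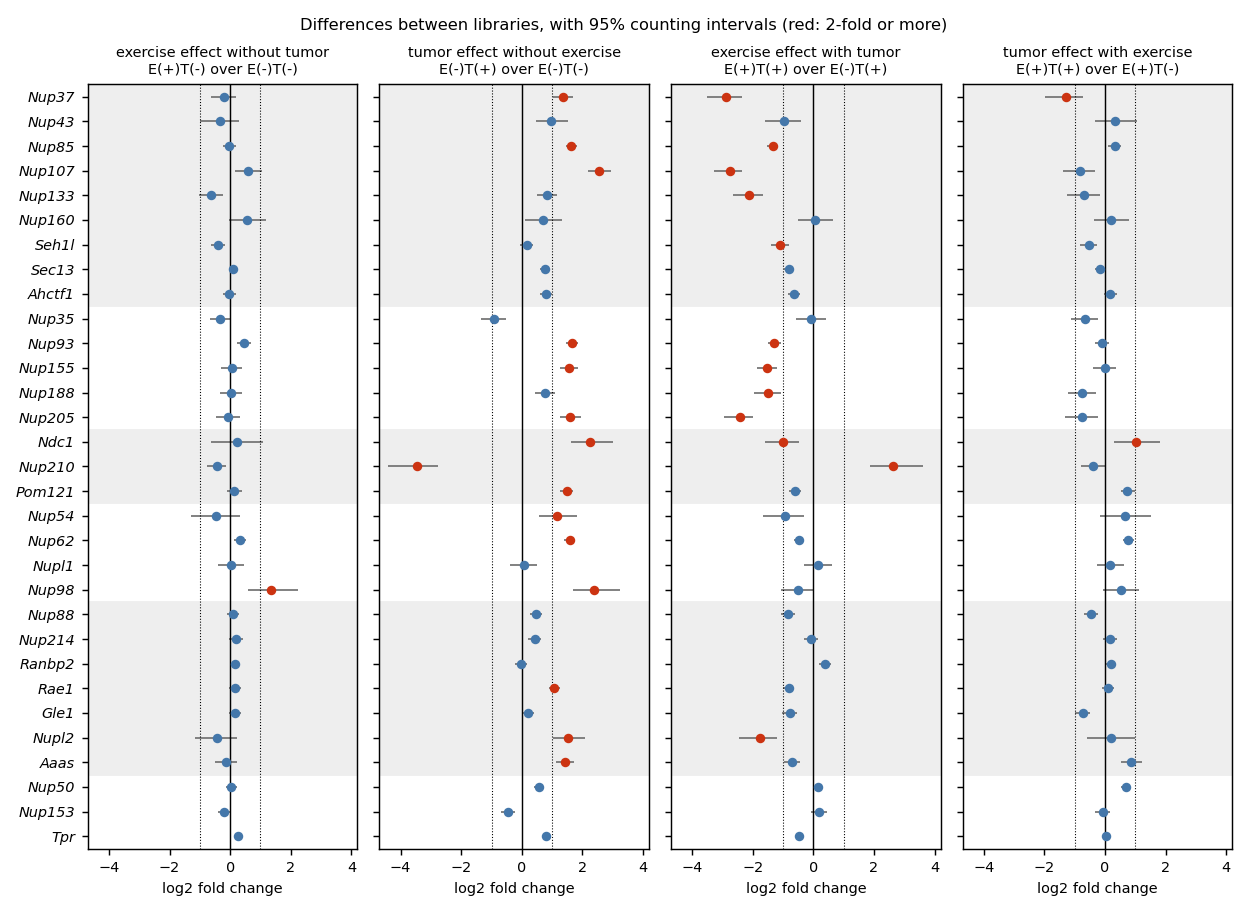
Log2 fold changes of the 31 nuclear pore genes in the 4 comparisons. Points are differences of the deposited log2 values, lines are 95% Clopper-Pearson intervals of the read ratio that cover counting error only, and dotted lines mark the 2-fold limit. Red points at or past the limit number 1, 15, 12 and 2 from left to right.

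Scaling moved the counts of this comparison. With library totals alone, the median of all rows was -0.59 and that of the 31 genes -1.42, so that the difference from all rows, -0.83, stayed near the -0.82 of the deposited scaling. The number past the limit was then 1 higher and 23 lower, against 16.4% and 35.4% of all rows, and Nup160, Nupl1, Ranbp2, Nup50 and Nup153 turned from higher to lower. Nup43 was also past the limit, at -1.002, with totals without hemoglobin genes and Rn45s. Erythroid genes held 11.4, 11.1, 1.14 and 24.6% of the reads, and all 11 were higher with exercise by 2-fold or more, as were 9 of 10 neutrophil genes. Of the cell division genes, 14 of 15 were lower by 2-fold or more (median -1.97). Higher by 2-fold or more were 10 of 10 alveolar epithelium genes, 8 of 8 endothelium genes, 8 of 9 T cell genes and 6 of 7 B cell genes. The part of these genes' cells in the levels of the nuclear pore genes was not tested.

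The third comparison asked how healthy lungs differed with exercise, E(+)T(-) over E(-)T(-). Nuclear pore genes differed little, as did most rows at their levels, and Nup98 was the 1 gene past the 2-fold limit. The share of all rows that was higher by 2-fold or more was 5.28%, and 4.7% were lower, against 1 and 0 of the 31 genes. Of the rows in the range of levels of the 31 genes, 2.15% were higher and 1.26% lower by as much, so that few of those were past the limit either. Reads of Nup98 numbered 19 without and 46 with exercise, a 2.54-fold higher level (log2 1.34, 0.59 to 2.24). Next were Nup107 at 0.60 (0.16 to 1.06) and Nup160 at 0.55 (-0.04 to 1.18). The lowest was Nup133 at -0.62 (-1.02 to -0.23), followed by Nup54 at -0.46, Nupl2 at -0.44 and Nup210 at -0.44. The median was 0.04 for the 31 genes and 0.00 for all rows. Intervals included 0 for 23 genes, lay above 0 for 5, which were Nup107, Nup93, Nup62, Nup98 and Tpr, and below 0 for 3, which were Nup133, Seh1l and Nup210.

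E(+)T(-) carried a trace of the genes that were abundant in E(-)T(+) and absent from E(-)T(-). Genes with no read in E(-)T(-) and a normalized count of at least 500 in E(-)T(+) numbered 9, Krt20 among them. The median share of their E(-)T(+) level that was found in E(+)T(-) was 1.47%. Taking this share out of E(+)T(-), an alternative chosen after seeing the data, left Nup98 at 1.30 and Nup107 at 0.52, with Nup98 still the 1 gene past the limit. Protein folding genes were higher in the same comparison, 11 of 12 by 2-fold or more, with a median of 1.47, as were 7 of 10 neutrophil genes (median 1.54), and 5 of 15 cell division genes were past the limit (median 0.48). Their part in the level of Nup98 was not tested. At 19 reads, Nup98 has the fewest reads of the 31 genes in E(-)T(-), and the genes left by a minimum mean count of 100 do not include it.

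The fourth comparison asked how exercised lungs differed with tumor, E(+)T(+) over E(+)T(-). Of the 31 nuclear pore genes, 17 were higher and 14 lower as deposited, with a median of 0.09, against 0.00 for all rows. One gene was higher by 2-fold or more and 1 was lower, where 14.9% and 13.0% of all rows were. Ndc1 was higher, at 1.01 (0.30 to 1.80), with 26 and 42 reads, and was inside the limit at 0.93 with a pseudocount of 4. Nup37 was lower, at -1.30 (-1.99 to -0.72), with 93 and 29 reads. The 5 inner ring genes were all lower, with a median of -0.66, and the 4 channel genes were all higher, except Nupl1 with library totals alone, with a median of 0.58. None of these 9 genes was past the limit, and the interval excluded 0 for 3 inner ring genes, Nup35, Nup188 and Nup205, and for 1 channel gene, Nup62. Nup98 was at 0.52 (-0.08 to 1.13), Nup62 at 0.76 (0.58 to 0.94), Aaas at 0.85 (0.52 to 1.20), Pom121 at 0.74 and Nup50 at 0.69. Lower values beside Nup37 were those of Nup107 at -0.83, Nup205 at -0.76, Nup188 at -0.76, Gle1 at -0.73, Nup133 at -0.69, Nup35 at -0.66 and Seh1l at -0.54, all with intervals below 0.

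With library totals alone, the median of all rows was -0.41 and that of the 31 genes -0.32, no gene was higher past the limit, and 7 were lower, against 9.50% and 24.2% of all rows. Those 7 were Nup37, Nup107, Nup133, Nup35, Nup188, Nup205 and Gle1. Of the 17 genes that were higher, 10 then turned lower, Nup43, Nup85, Nup160, Ahctf1, Nupl1, Nup214, Ranbp2, Rae1, Nupl2 and Tpr. The inner ring genes stayed below 0 with that scaling, but Nup155, at -0.01, was at 0.05 once the trace of E(-)T(+) was taken out of E(+)T(-). Erythroid and neutrophil genes were all higher by 2-fold or more, 11 of 11 and 10 of 10, as were 13 of 15 cell division genes (median 1.96). Lower by 2-fold or more were 11 of 12 protein folding genes (median -1.83), 4 of 7 B cell genes (median -1.53) and 3 of 9 T cell genes (median 0.12). Their part in the values above was not tested.

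**Figure D4:**
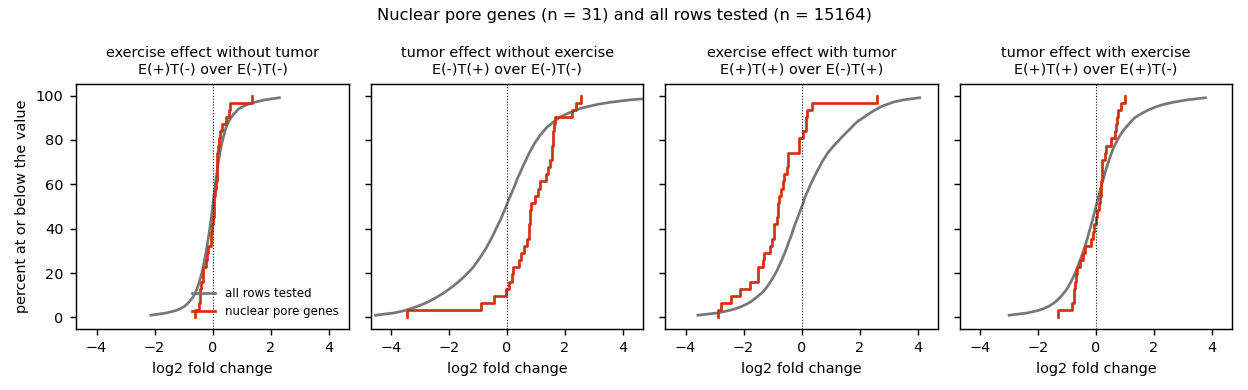
Cumulative distributions of the log2 fold change in the 4 comparisons for the 31 nuclear pore genes (red) and the 15164 rows tested (gray, drawn from percentiles 1 to 99). The red curve lies to the right of the gray one over most of its range for the tumor effect without exercise and to the left for the exercise effect with tumor, with Nup210 as the point at the other end.

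The exercise effect could be set side by side in mice with and without tumor, since these comparisons share no library. Of the 31 genes, 20 had intervals of the exercise effect that did not overlap. It was lower with tumor in 19, where 26.3% of all rows were, and higher in 1, Nup210, where 27.4% of all rows were. The difference on the log2 scale was -3.37 for Nup107, -2.65 for Nup37, -2.36 for Nup205 and -1.86 for Nup98, and 3.06 for Nup210. Nup98 stood at 1.34 without tumor and -0.52 with tumor. As deposited, none of the 31 genes was past the limit in opposite directions in both exercise comparisons, where 3.15% of all rows were. With library totals alone Nup98 was, since it was at -1.12 with tumor and stayed past the limit, higher, without tumor. In the tumor comparisons as deposited, 1 gene was past it in opposite directions, Nup37, against 2.94% of all rows. With library totals alone Nup107 and Nup205 also were, at -1.24 and -1.17 with exercise and past the limit, higher, without exercise. For both pairs of comparisons, the share of all rows past it in opposite directions was not counted with library totals alone. With 1 library per group the difference between effects could not be tested against replicates.

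Lungs with both exercise and tumor were also compared with those with neither, E(+)T(+) over E(-)T(-). Here 26 of the 31 genes lay within 2-fold. Past the limit, 3 were higher, 1.86 for Nup98, 1.24 for Ndc1 and 1.09 for Nup62 on the log2 scale, where 14.8% of all rows were. A further 2 were lower, Nup37 at -1.52 and Nup133 at -1.30, where 14.4% of all rows were. The median was 0.14 for the 31 genes and -0.02 for all rows. Over all 4 design comparisons, 13 genes never reached the limit, where 37.3% of all rows never did, among them Tpr, Nup50 and Nup153 of the basket and Nup88, Nup214, Ranbp2 and Gle1 of the cytoplasmic face.

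The design allows 1 fit over all 4 libraries, with exercise and tumor as additive factors, 1 residual degree of freedom and the interaction taken as the spread. By limma with Benjamini-Hochberg adjustment over 15164 rows, no nuclear pore gene was called for tumor, where 495 rows (3.26%) were, and none for exercise, where 0 rows (0%) were. At an unadjusted p under 0.05 there were 3 genes for tumor, where 2702 rows were, and 0 for exercise, where 753 rows were. The 3 were Nup62, with a log2 effect of 1.17 (limma adjusted p = 0.185), Nup210 at -1.92 (adjusted p = 0.215) and Pom121 at 1.11 (adjusted p = 0.235). Nup98 had a tumor effect of 1.45 with a limma adjusted p of 0.397. Nup107 and Nup205, whose tumor effects had opposite signs with and without exercise, had limma adjusted p-values of 0.620 and 0.812.

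Genes that work with the pore were read in the same way. The receptors of import bind cargo in the cytoplasm and the receptors of export in the nucleus, and the Ran cycle gives the transport its direction. Of 5 Ran cycle genes tested, 5 were higher with tumor in sedentary mice, 3 of them by 2-fold or more (median 1.56), where 20.6% of all rows were, and Nutf2, the importer of Ran, was listed at 0 in every library. Ran, the transport GTPase, had normalized read counts of 1255, 1710.4, 6736 and 2533, and Rcc1, its exchange factor on chromatin, 104, 103, 923 and 237. Both were highest in E(-)T(+), with log2 fold changes of 2.42 and 3.14 over E(-)T(-), and lower with exercise in tumor-bearing mice, at -1.41 and -1.95. Ranbp1, which helps release Ran from receptors, was at 1.56 and -1.18.

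Of 16 import receptors, 6 were higher by 2-fold or more in the first comparison and 0 lower (median 0.62), against 20.6% and 25.7% of all rows. Tnpo1, the importer of many RNA-binding proteins, was at 1.95, Ipo7 at 1.71 and Kpnb1, importin beta, at 1.56, while Kpna1, an importin alpha, was at -0.98, Ipo13 at -0.75 and Ipo8 at -0.73. With exercise in tumor-bearing mice 4 import receptors were lower past the limit, led by Tnpo1 at -1.63, Kpnb1 at -1.44 and Ipo7 at -1.33, and 1 was higher, Kpna1 at 1.52, against 17.7% and 24.3% of all rows. Import receptors hence held members with opposite differences, as the nuclear pore genes did. Of 7 export receptors, 2 were past the limit with tumor, Xpo6 at 1.17 and Xpo4, which had 8, 2, 31 and 22 reads and is named after its values were seen. Of all rows, 20.6% were higher by as much. The main exporter Xpo1 was at 0.48 and Cse1l, which returns importin alpha, at 0.91. Xpot was the 1 export receptor that was lower, at -0.325.

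Among 14 mRNA export genes, 3 were higher past the limit with tumor, a share near the 20.6% of all rows. They were Thoc3 at 1.71, Alyref at 1.49 and Ddx19b at 1.20. None was past the limit with exercise in tumor-bearing mice (median -0.56), where 24.3% of all rows were higher and 17.7% lower. Nxf1, the general mRNA exporter, was the 1 gene of this list that was higher with exercise there, at 0.68. Nuclear lamina genes, which line the envelope between the pores, had 4 of 10 higher past the limit with tumor, where 20.6% of all rows were, Lmna at 2.07, Banf1 at 1.69, Lmnb2 at 1.30 and Lmnb1 at 1.23. With exercise in tumor-bearing mice Lmnb1 was higher, at 1.77, and Banf1, Sun1 and Lmnb2 were lower past the limit, at -1.25, -1.23 and -1.13, where 24.3% of all rows were higher and 17.7% lower. In healthy mice no gene of the import, Ran, mRNA export and lamina lists was past the limit with exercise, and 1 export receptor was, Xpo4 with 8 and 2 reads. Few rows were past it in that comparison, 5.28% of all rows higher and 4.7% lower.

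**Figure D5:**
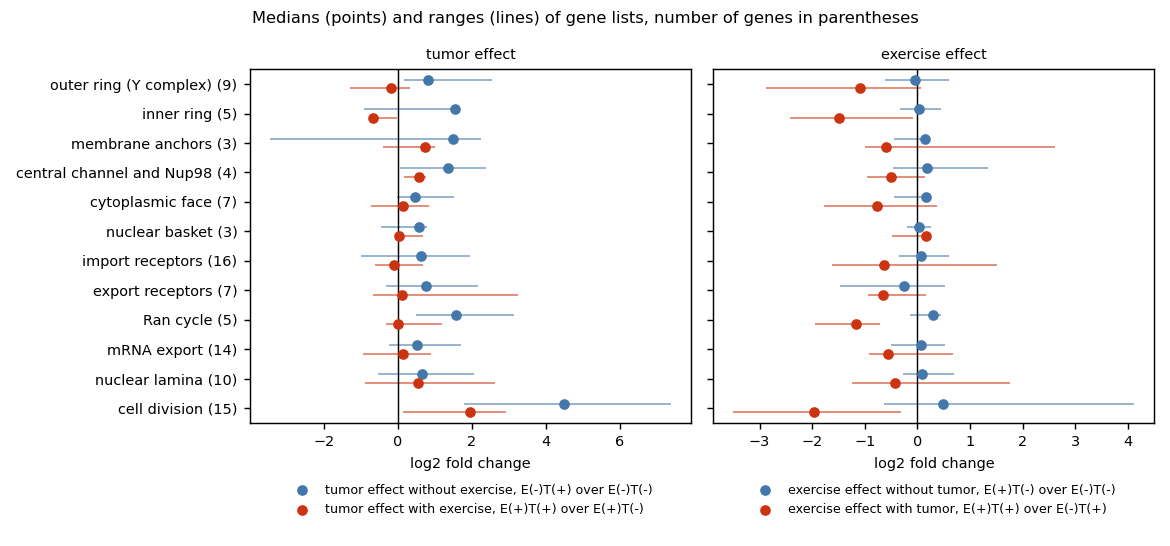
Median log2 fold changes (points) and ranges (lines) of the 6 structural groups of the pore and of 6 related lists, with tumor effects on the left and exercise effects on the right. On the left, cell division genes have the highest median in sedentary and in exercised mice, and the medians of the Ran cycle and inner ring genes come next in sedentary mice.

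Reads were assigned to genes by overlap, and whether strand was used was not given in the sources used here. For 4 of the 31 genes, another gene's exon lies within the last 1000 bases of the span of the gene on the genome. The neighbors were Kif28 for Ahctf1 on the same strand and Nsun5 for Pom121, Rabep1 for Nup88 and Prg4 for Tpr on the opposite strand. The reads of these 4 genes may include some of their neighbors.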

How the data were processed

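Poly(A)-primed 3' libraries (QuantSeq, NextSeq 500) of mouse lung were made by the authors, who aligned reads with Bowtie2, counted them per gene with bedtools coverage and applied the quantile normalization of edgeR. The submitters' processing notes name mm10. Versions, gene models and strand handling are not given in the sources used here. The deposited values are log2(normalized read count + 1) at 3 decimals. Whole reads were recovered by inverting a negative binomial quantile adjustment to a common library size (dispersion 0.372), which returned 99.9% of the values at 3 decimals. Totals, with E(-)T(-) first and then E(+)T(-), E(-)T(+) and E(+)T(+), were 13017424, 12780459, 9354515 and 13368001 reads, and a floor of 3 reads equals 0.230, 0.235, 0.321 and 0.224 RPM (reads scaled to a library of 1e6).

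Fold changes are differences of the deposited log2 values, which understate changes of low genes, with a limit of 2-fold and a filter of a mean normalized count of 4. Exact 95% Clopper-Pearson intervals of read ratios and Poisson intervals of levels cover counting error only, since reads without molecular identifiers are not independent molecules. The additive fit was planned with a count test if counts were deposited. It used limma 3.58.1 (lmFit, eBayes with trend, R 4.3.3) on the log2 values with an adjusted p limit of 0.05. The recovery and the fit were checked on simulated data. Python 3.11.15, numpy 2.4.6, scipy 1.17.1 and pandas 2.3.3 were used. Promoters and positions came from RefSeq (GRCm38.p6, the assembly of mm10), and exons from GENCODE (release M21). Of other lists, up to the 3 highest and 3 lowest genes at a mean count of at least 50 could be named. Beyond this rule, Nutf2 and Cdx2 were named as rows at 0, and Xpo4 after its values were seen. Alternatives were other scalings, pseudocounts, filters and limits. The members and lists were chosen with earlier results of these data known.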

Additional observations from a re-analysis of the deposited data

Results flagged for a closer look

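Nup37 is a gene of the outer ring. As deposited, it was the 1 nuclear pore gene whose tumor effects in sedentary and exercised mice were past the 2-fold limit in opposite directions. Of all rows, 2.94% had this pattern. For Nup37 the log2 fold change was 1.352 without exercise, on 233 reads with tumor and 117 in the normal control. It was -1.302 with exercise, on 29 reads with tumor and 93 in the normal exercise group. The difference between these 2 effects was not tested, since each group is 1 library. With library totals alone, Nup107 and Nup205 had the pattern as well. Their tumor effects with exercise were then at -1.24 and -1.17, and both stayed past the limit, higher, without exercise. The share of all rows with the pattern was not counted at that scaling. Of all rows, 24.2% were then lower past the limit with exercise and 22.8% higher without exercise.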

How the results depend on the processing

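Without replicates, no leave-one-out value could be had. No paired analysis was possible because each group is 1 library. With library totals alone, the median of the 31 genes was 0.93 for the tumor effect without exercise, -1.42 for the exercise effect with tumor and -0.32 for the tumor effect with exercise. The last 2 comparisons had 24 and 7 genes past the limit, against 51.8 and 33.7% of all rows. With totals without hemoglobin genes and Rn45s, the medians were -0.074 for the exercise effect without tumor and 0.68 for the tumor effect without exercise. In the tumor effect with exercise 1 gene was then past the limit, against 28.4% of all rows. The same count was found with a pseudocount of 4, against 24.6% of all rows. With a minimum mean count of 100, which 24 of the 31 genes pass, the count past the limit was 0 for exercise without tumor and 1 for tumor with exercise, whose median was -0.0895, since Nup98 and Ndc1 are among the genes left out. Of the 9396 rows at that minimum, 2.13% were past the limit for exercise without tumor and 17.9% for tumor with exercise. At a 1.5-fold limit the counts were 3, 23, 21 and 13, where 22.5, 65.3, 61.9 and 48.8% of all rows were past it, in the order exercise without tumor, tumor without exercise, exercise with tumor, tumor with exercise. The median of the exercise effect without tumor, 0.04 as deposited, was -0.05 with library totals alone. The cause of the shifts with scaling was not tested. No value past the limit changed sign under any alternative run. Values of single genes moved by more than their interval in 46 of 124 cases with library totals alone, in 3 without hemoglobin genes and Rn45s, and in none under the other alternatives. Under every alternative of the limma fit, 0 nuclear pore genes were called for tumor or exercise, while the 495 rows called for tumor became 827 with library totals alone, 310 with median-of-ratios size factors, 6 without hemoglobin genes and Rn45s, and 0 without the filter, at the minimum of 100 or without the trend. Depth limits the values that rest on few reads, such as those of Nup98, with 19 reads in the normal control, and Nup210, with 14 in the cancer control.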
